A study of Mus musculus with 9 samples.

Results

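The Reg genes encode small secreted proteins built around a C-type lectin fold, a carbohydrate-binding domain. The 5 members described here, Reg3g, Reg3b, Reg3a, Reg1 and Reg4, were taken by their annotated gene symbol, with no measured value in the rule. They stand for 5 of the 18193 genes and 6 of the 34945 probe sets with 1 gene symbol on the Affymetrix mouse genome array, where a probe set is a group of short probes that reads 1 transcript. Reg3b had 2 probe sets and each other member 1, and all 6 passed the filter on dim signals.

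RNA came from cultured organoids grown from the small intestinal epithelium of mice and kept for 6 days. Ligand organoids received TGF-beta1 at 0.04 ng/mL, inhibitor organoids a compound labelled as blocking TGF-beta receptors 1 and 2 at 20 uM, and untreated organoids nothing, with 3 arrays in each of the 3 groups. Exposure lasted 5 days and began on day 1. Mouse strain and age, the compound's name, a vehicle and the origin of each replicate are absent from the labels, so the p-values reflect the spread among these arrays, which could be technical.

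Reg3g and Reg3b are antibacterial lectins that the mouse gut epithelium secretes toward the mucus. In mouse intestine their RNA is known to rise after bacterial sensing through the adaptor MyD88 and after interleukin-22 signals through STAT3. Reg3a is a further member of the Reg3 group, Reg1 was first described in the pancreas and is also made by small intestinal epithelium, and Reg4 marks enteroendocrine cells and, in mouse colon, secretory cells of the crypt base.

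In the RefSeq annotation of build GRCm38.p6, Reg3b, Reg3d, Reg3a, Reg2, Reg1 and Reg3g lie in this order within 98.0 kb of chromosome 6 (chr6:78370885-78468874). One other annotated gene lies among them, and Reg4 lies on chromosome 3 (chr3:98222138-98236748). The 3 Reg3 members gave 3 different patterns on the arrays, so the 250 bases before their start sites are shown from RefSeq, 5′ to 3′ on the strand of the gene. They lie at chr6:78468875-78469124 (minus strand) for Reg3g, chr6:78370635-78370884 (plus) for Reg3b and chr6:78380459-78380708 (plus) for Reg3a. Capitals mark matches, on either strand, to TATAAA (the box of many core promoters), TTCNNNGAA (a STAT site), CTTTGAT (a TCF/LEF site) and CACCTG (an E-box), and no match overlaps another. These motifs were picked with the sequences in view.
Reg3g: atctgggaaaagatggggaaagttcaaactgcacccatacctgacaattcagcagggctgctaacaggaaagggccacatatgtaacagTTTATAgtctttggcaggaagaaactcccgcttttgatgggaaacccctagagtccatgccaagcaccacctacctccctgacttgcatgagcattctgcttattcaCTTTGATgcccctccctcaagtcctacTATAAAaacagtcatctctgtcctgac
Reg3b: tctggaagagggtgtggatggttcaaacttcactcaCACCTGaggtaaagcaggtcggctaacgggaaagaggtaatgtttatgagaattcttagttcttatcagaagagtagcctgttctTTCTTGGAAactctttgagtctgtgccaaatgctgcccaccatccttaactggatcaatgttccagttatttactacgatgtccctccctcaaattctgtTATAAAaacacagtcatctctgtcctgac
Reg3a: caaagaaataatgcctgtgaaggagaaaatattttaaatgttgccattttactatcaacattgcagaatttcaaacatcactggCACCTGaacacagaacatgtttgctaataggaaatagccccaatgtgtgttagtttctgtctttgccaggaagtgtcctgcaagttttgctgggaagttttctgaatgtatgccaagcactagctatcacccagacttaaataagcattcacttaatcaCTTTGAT

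Reg3g and Reg3b each had TATAAA, beginning 27 and 29 bases before the start, while the window of Reg3a held none. CTTTGAT began 54 bases before the start in Reg3g and 7 in Reg3a, so these windows may not cover matching stretches. Bases past the annotated start of Reg3a were not searched. Reg3g also held the reverse letters TTTATA, beginning 161 bases before the start. TATAAA occurred on either strand in 12.4% of 32851 mouse promoter windows of the same length. Reg1 and Reg2 held it as well. The STAT letters occurred in Reg3b, as TTCTTGGAA beginning 129 bases before the start, in Reg3d and in 7.02% of all windows. CTTTGAT occurred in Reg3g, Reg3a and Reg2 and in 3.21% of all windows, and CACCTG in Reg3b, Reg3a, Reg4, Reg2 and Reg3d and in 17.2% of all. The letters CAGACA, known from SMAD-bound promoters, matched none of the windows of the 5 members, Reg2 and Reg3d, and matched 17.1% of all windows. Shorter SMAD letters were not searched, so this does not show that the windows lack SMAD sites. The AP-1 letters TGANTCA matched the window of Reg1 and 6.75% of all. In a global alignment Reg3g and Reg3b had the same base at 69.2% of the 250 positions, against 57.2% for Reg3g and Reg3a and 54.8% for Reg3b and Reg3a. The window of Reg4, on another chromosome and at a start site inside the annotated gene, shared 52.4% to 54.0% with the other Reg windows. These matches and shares describe letters in 1 window per gene, and both depend on where its start is annotated.

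Values are MAS5 signals on a linear scale, with mean ± SD over the n = 3 arrays of a group, and the arrays had medians between 46.1 and 57.9. Log2 changes are of signal plus 16, with their SE, from 1 limma fit over 12941 genes. A gene is called, and said to have risen or fallen, where its Benjamini-Hochberg adjusted p in that fit was under 0.05. The log2 ratio of 3 prime to 5 prime signal of the beta-actin control, a sign of RNA quality or amplification, was 0.40 to 0.58 on ligand, 0.18 to 0.24 on inhibitor and 0.37 to 0.43 on untreated arrays. The same ratio of the Gapdh control was -0.29 to -0.25, -0.29 to -0.27 and -0.27 to -0.25 on these arrays. The part of either in the results was not tested. In these bulk samples fewer cells of a type and less RNA per cell cannot be told apart.

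With the inhibitor Reg3g and Reg3b rose, Reg4 and Reg3a fell and Reg1 was not called, against 21.2% of all genes called higher and 23.9% called lower. With the ligand Reg4 and Reg3b rose and Reg3g, Reg3a and Reg1 fell, against 14.8% of all genes called higher and 9.37% called lower. Each of the 5 members thus had a different pair of calls, and both comparisons share the 3 untreated arrays. The call of Reg3a with the inhibitor was at the threshold (limma adjusted p = 0.0495, and 0.0649 with the replicate number as a block), and 13 of 20 alternative fits lost it, which leaves Reg3a and Reg1 with the same pair.

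**Figure D1:**
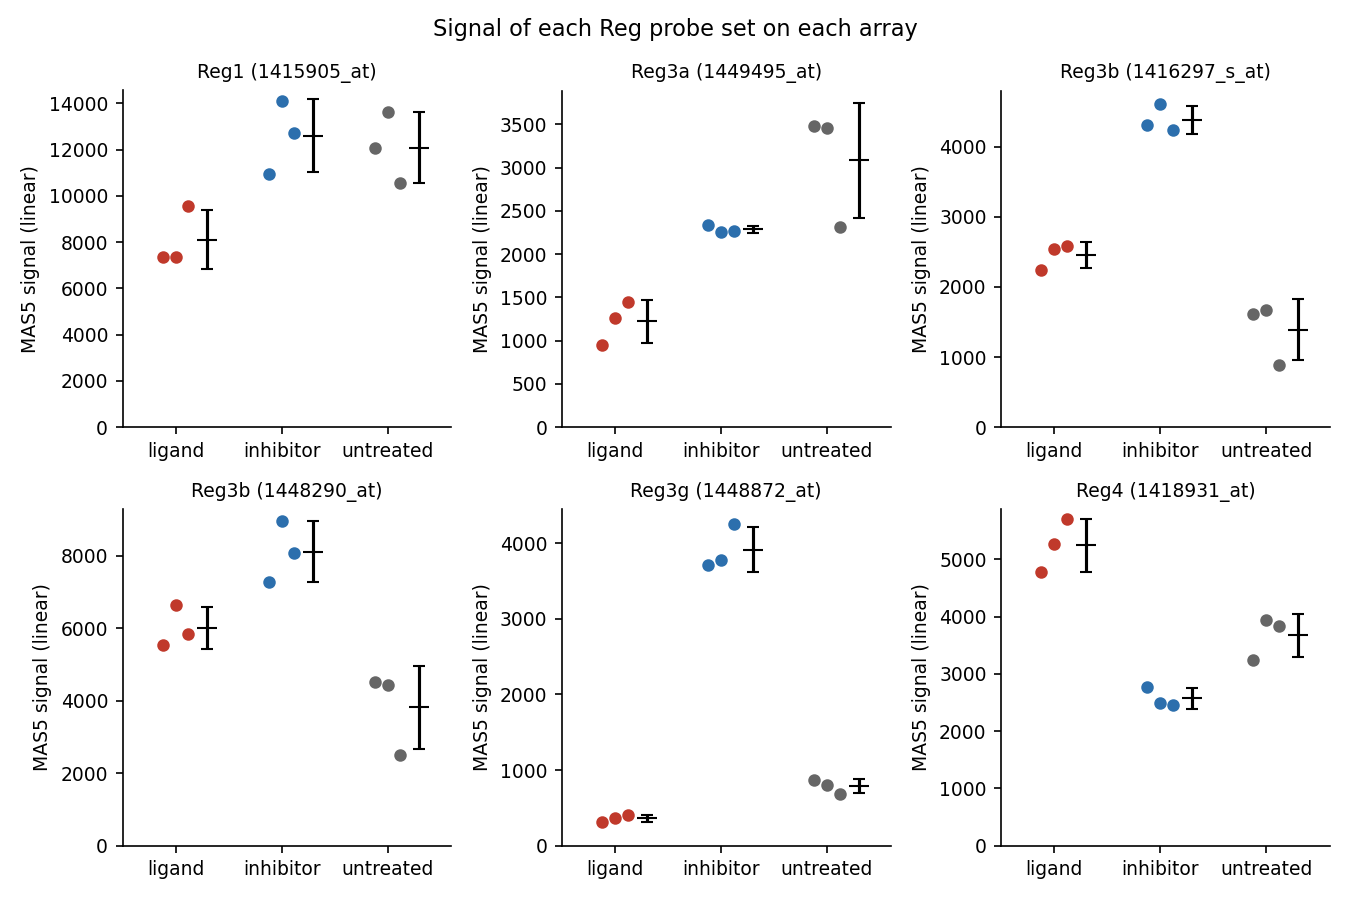
MAS5 signal (linear axis) of the 6 Reg probe sets on each array, with ligand, inhibitor and untreated arrays as points for replicates 1 to 3 and a bar for mean ± SD. Reg3g stands at 3712 to 4256 on inhibitor arrays, against 309 to 403 on ligand and 690 to 870 on untreated arrays, and untreated replicate 3 is the lowest of its group for Reg3a and for both Reg3b probe sets.

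Reg3g, a lectin that kills Gram-positive bacteria, had signals of 309, 369 and 403 on ligand arrays, 3712, 3780 and 4256 on inhibitor arrays and 870, 807 and 690 on untreated arrays. All inhibitor arrays lay above all untreated arrays and all ligand arrays below them, with no overlap between any pair of groups. The means were 360 ± 47.8, 3916 ± 297 and 789 ± 91.3 for ligand, inhibitor and untreated arrays. With the inhibitor Reg3g rose 4.90-fold, a log2 change of 2.29 ± 0.10 (limma adjusted p = 6.45e-09). With the ligand it fell 2.14-fold, a log2 change of -1.10 ± 0.10 (adjusted p = 8.64e-06). Few genes moved as far: 99.7% of the 12941 genes had a smaller absolute change with the inhibitor and 98.1% with the ligand. Between the treatments the distance was a log2 change of -3.39 ± 0.10 for ligand against inhibitor (adjusted p = 6.58e-11), a 10.5-fold difference. Being higher with the inhibitor and lower with the ligand was the pair of calls of 567 genes, or 4.38% of those tested.

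Reg3b, a lectin active against Gram-negative bacteria, rose with both treatments. The probe set that stands for the gene, the one with the higher mean, had signals of 5535, 6655 and 5845 on ligand arrays, 7282, 8971 and 8093 on inhibitor arrays and 4516, 4442 and 2491 on untreated arrays. Every treated array stood above every untreated one, every inhibitor array above every ligand array, and untreated replicate 3 was well below its 2 companions. The means were 6012 ± 578, 8115 ± 845 and 3816 ± 1148 for ligand, inhibitor and untreated arrays. With the inhibitor the log2 change was 1.13 ± 0.18, or 2.19-fold (limma adjusted p = 0.000182), and with the ligand 0.70 ± 0.18, or 1.62-fold (adjusted p = 0.0122). Without untreated replicate 3 these changes were 0.85 and 0.42, and both stayed past the threshold (adjusted p = 5.92e-05 and 0.0159). Called higher with both treatments were 412 genes, or 3.18% of those tested. For ligand against inhibitor the log2 change of -0.43 ± 0.18 was not called (adjusted p = 0.0561), although the groups did not overlap. It gained a call in 8 of 20 alternative fits, among them the replicate block (adjusted p = 0.0324) and the fit of these 2 groups alone (adjusted p = 0.0047).

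The other Reg3b probe set, of the kind whose probes may match several transcripts, showed the same order with a wider gap between the treatments. Its signals were 2239, 2544 and 2578 on ligand arrays, 4305, 4615 and 4233 on inhibitor arrays and 1607, 1667 and 885 on untreated arrays. No pair of groups overlapped, and replicate 3 was again the lowest untreated array. In the limma fit over 23888 probe sets its log2 change was 1.70 ± 0.18 with the inhibitor (adjusted p = 1.38e-05) and 0.87 ± 0.18 with the ligand (adjusted p = 0.00553). For ligand against inhibitor it was called lower, at -0.84 ± 0.18 (adjusted p = 0.00192), so the 2 probe sets differ in that call. In that fit 37.8% of probe sets were called with the inhibitor and 17.6% with the ligand, each against untreated, and 49.4% between the treatments. Whether probes of either set also read another Reg transcript was not tested.

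Reg3a was highest in untreated organoids. Its signals were 950, 1266 and 1448 on ligand arrays, 2332, 2261 and 2271 on inhibitor arrays and 3478, 3460 and 2313 on untreated arrays. Ligand arrays were the lowest without overlap, and the inhibitor and untreated arrays overlapped at untreated replicate 3. The means were 1222 ± 252, 2288 ± 38.2 and 3083 ± 667 for ligand, inhibitor and untreated arrays. With the ligand Reg3a fell 2.50-fold, a log2 change of -1.32 ± 0.16 (limma adjusted p = 4.91e-05), which 99.0% of genes did not reach in absolute size. The fall with the inhibitor, -0.40 ± 0.16 (adjusted p = 0.0495), lay at the threshold, with adjusted p up to 0.182 among the alternative fits. It was -0.60 without untreated replicate 3 (adjusted p = 0.00305) and -0.30 and -0.31 without untreated replicates 1 and 2, which lost the call. Ligand against inhibitor gave -0.92 ± 0.16 (adjusted p = 0.000206).

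Untreated replicate 3 stood apart from its group for Reg3b and Reg3a. Against the mean of the other untreated arrays it was lower by a log2 difference of -0.84 and -0.87 for the Reg3b probe sets, -0.58 for Reg3a, -0.28 for Reg1 and -0.27 for Reg3g, and Reg4 differed by 0.10. Over all genes tested this difference had a median of 0.00 and the central 95% of genes ran between -0.48 and 0.55. Reg3b and Reg3a thus lay outside that range, and the other 3 members inside it.

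Reg1, named for its link to regenerating pancreatic islets, fell with the ligand alone. Its signals were 7360, 7374 and 9566 on ligand arrays, 10961, 14121 and 12738 on inhibitor arrays and 12064, 13630 and 10549 on untreated arrays. Inhibitor and untreated arrays overlapped throughout, and all ligand arrays lay below both. The means were 8100 ± 1270, 12607 ± 1584 and 12081 ± 1540 for ligand, inhibitor and untreated arrays. With the ligand Reg1 fell 1.49-fold, a log2 change of -0.58 ± 0.13 (limma adjusted p = 0.00551). The inhibitor gave 0.06 ± 0.13 (95% interval -0.22 to 0.34, adjusted p = 0.735), and ligand against inhibitor gave -0.64 ± 0.13 (adjusted p = 0.000827). Lower with the ligand and not called with the inhibitor were 439 genes, or 3.39% of those tested.

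Reg4 moved opposite to Reg3g and by nearly equal amounts in both comparisons. Its signals were 4780, 5262 and 5710 on ligand arrays, 2776, 2484 and 2454 on inhibitor arrays and 3250, 3941 and 3833 on untreated arrays. No pair of groups overlapped, with ligand arrays highest and inhibitor arrays lowest. The means were 5251 ± 465, 2571 ± 178 and 3675 ± 372 for ligand, inhibitor and untreated arrays. The log2 change was -0.51 ± 0.09 with the inhibitor (limma adjusted p = 0.000516) and 0.51 ± 0.09 with the ligand (adjusted p = 0.00125). Ligand against inhibitor gave 1.02 ± 0.09, or 2.03-fold (adjusted p = 6.81e-07). Lower with the inhibitor and higher with the ligand were 657 genes, or 5.08% of those tested.

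**Figure D2:**
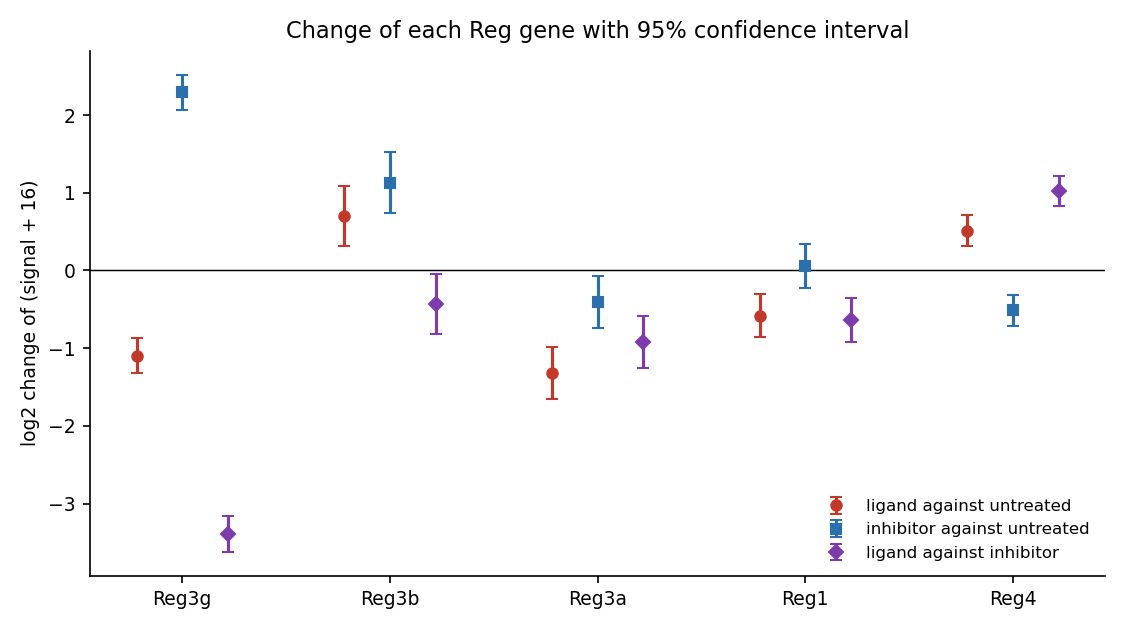
Log2 change of signal plus 16 with its 95% interval for Reg3g, Reg3b, Reg3a, Reg1 and Reg4 in 3 comparisons. Reg3g and Reg4 lie on opposite sides of 0 in the 2 comparisons with untreated, Reg3b lies above 0 in both and Reg3a below 0 in both.

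Set against each other, the treated groups differed in 4 of 5 members: Reg4 was called higher with the ligand, and Reg3g, Reg3a and Reg1 lower. Reg3b, at an adjusted p of 0.0561, was the member not called, and was called lower in 8 of 20 alternative fits. Of all genes 32.6% were called higher and 23.0% lower in that comparison. Groups did not overlap in 5 of 5 members for ligand against inhibitor (60.6% of all genes), in 5 of 5 for ligand against untreated (38.6%) and in 3 of 5 for inhibitor against untreated (55.9%). The median log2 change of the members was -0.64, -0.58 and 0.06 in these comparisons, beside 0.07, 0.05 and -0.01 over all genes. Such medians hide members that moved in opposite directions.

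Whether the changes of a gene with inhibitor and ligand cancel was tested as their sum in the same limma fit. Reg3b (1.83 ± 0.31, adjusted p = 0.00098) and Reg3g (1.19 ± 0.18, adjusted p = 0.000447) had sums above 0, and Reg3a one below 0 (-1.72 ± 0.27, adjusted p = 0.000551). Over all genes 12.8% had a sum called higher and 11.1% one called lower. The sum of Reg4 was 0.00 ± 0.16 (95% interval -0.34 to 0.35, adjusted p = 0.988), and that of Reg1 was -0.52 ± 0.22 (adjusted p = 0.115), so neither was called. Leaving out ligand replicate 3 brought Reg1 past the threshold, at -0.64 (adjusted p = 0.0242).

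Differences between members within an array depend little on its scaling. The log2(signal + 16) of Reg3g minus that of Reg3b, a difference whose level has no meaning between probe sets, was -4.10, -4.11 and -3.81 on ligand arrays, -0.97, -1.24 and -0.92 on inhibitor arrays and -2.36, -2.44 and -1.83 on untreated arrays. Ligand arrays were lowest and inhibitor arrays highest, with no overlap. The shift was -1.80 with the ligand and 1.16 with the inhibitor, each at a 2-sided p of 0.1 by exact permutation, which is as low as 3 arrays against 3 can go, so this test could not pass the threshold, and 0.12 after adjustment over the 6 such tests. Reg3b minus Reg3a shifted by 2.02 with the ligand and 1.53 with the inhibitor, and Reg3g minus Reg3a by 2.70 with the inhibitor, at the same exact p of 0.1. For Reg3g minus Reg3a with the ligand the shift was 0.22, at an exact p of 0.3.

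**Figure D3:**
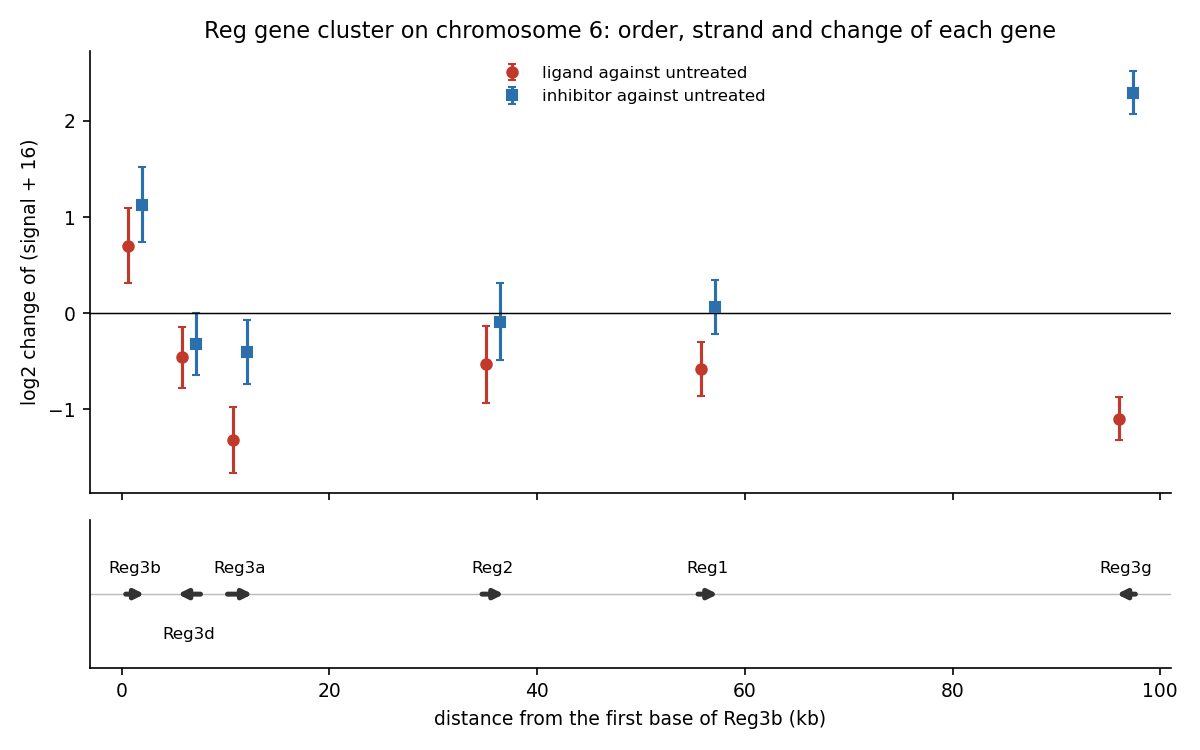
Position of the 6 Reg genes of chromosome 6 in kb from the first base of Reg3b, with arrows for strand, and their log2 change with ligand and inhibitor, with its 95% interval. Reg3b and Reg3g, at the ends of the 98.0 kb, are the genes that rose with the inhibitor, and the 4 genes between them have changes between -0.40 and 0.06 in that comparison.

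The order on the chromosome did not follow the order of the changes. Reg3b, at the left end, rose with both treatments, and Reg3g, at the right end and on the opposite strand, rose with the inhibitor alone. The genes between them include the dim Reg2 and Reg3d, which are not members. Reg3d had means of 67.2 ± 4.46, 75.6 ± 0.322 and 99.2 ± 19.6 on ligand, inhibitor and untreated arrays and was called lower with the ligand (log2 change -0.46 ± 0.15, limma adjusted p = 0.0383). Reg2 had means of 59.5 ± 19.8, 84.2 ± 5.00 and 91.5 ± 16.6 and was not called (with the ligand -0.53 ± 0.19, adjusted p = 0.0548). With the inhibitor neither was called at an adjusted or an unadjusted p under 0.05 by limma. Of the 6 genes of the cluster 4 were thus called lower with the ligand, beside 9.37% of all genes.

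The genes most like each member over the 9 arrays, after each gene's own mean was subtracted, were found by the root mean square difference on the log2 scale. For Reg3g these were Rab30 (0.223), a small GTPase, Npl (0.304), a sialic acid lyase, and Ces2a (0.311), a carboxylesterase. Rab30 had means of 140 on ligand, 1288 on inhibitor and 293 on untreated arrays, changes of -0.98 and 2.08 on the log2 scale. For Reg1 they were the chemokine Ccl25 (0.083), the fatty acid binding protein Fabp2 (0.088) and the G protein subunit Gna11 (0.091). Ccl25 and Fabp2 are genes of small intestinal epithelium, and both had log2 changes with the ligand near that of Reg1, at -0.49 and -0.48. For Reg3a they were Khk (0.149), the fructokinase, G0s2 (0.155), an inhibitor of triglyceride lipase, and Dpep1 (0.164), a dipeptidase. For Reg4 they were Rab15 (0.057), a small GTPase, Tubgcp2 (0.082), of the gamma-tubulin complex, and Dhx33 (0.089), a helicase. For Reg3b they were Bbc3 (0.226), Tnfrsf18 (0.228) and Ndnf (0.232), all at mean signals of 146 or less. The members' own deviation from their means was 1.42 for Reg3g, 0.59 for Reg3a, 0.53 for Reg3b, 0.43 for Reg4 and 0.33 for Reg1, on which these distances depend.

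Genes of cytokine receptors and of the signal through STAT3 were described as a list of receptors, kinases, STAT genes and inhibitors. STAT3 drives Reg3g and Reg3b in mouse intestine. The list also held the interleukin-17 receptor genes Il17ra and Il17rc and the genes Stat5a and Stat5b, so its counts are not of STAT3 genes alone. Il17ra was among those that rose with the inhibitor (0.47). In the whole fit 21.2% of genes were called higher and 23.9% lower with the inhibitor, and 14.8% and 9.37% with the ligand. With the inhibitor 7 of the 17 genes tested, of 22 listed, rose and 3 fell, with a median log2 change of 0.17 beside -0.01 over all genes. Stat3 itself had means of 663 ± 59.5 on ligand, 1105 ± 118 on inhibitor and 718 ± 35.8 on untreated arrays, and rose by 0.61 ± 0.09 with the inhibitor (limma adjusted p = 0.00012). Il10rb, a chain of the interleukin-22 receptor, rose by 0.54 ± 0.07 (adjusted p = 4.15e-05), while Il22ra1, its other chain, was at 0.33 ± 0.13 (adjusted p = 0.0629). The 3 that fell were Socs3 (-0.63 ± 0.21, adjusted p = 0.0289), Socs2 (-0.47 ± 0.07, adjusted p = 6.29e-05) and the phosphatase gene Ptpn2 (-0.44 ± 0.07, adjusted p = 0.000281). Pias3, whose product inhibits STAT3, rose (0.26 ± 0.09, adjusted p = 0.0303). With the ligand limma called 0 of 17 higher (3 at an unadjusted p under 0.05) and 3 lower, namely Il17rc (-0.52), Socs2 (-0.28) and Jak2 (-0.21), with a median of -0.08 beside 0.05 over all genes. Stat3 was at -0.12 ± 0.09 with the ligand (adjusted p = 0.4). Its RNA does not measure STAT3 activity, and the part of STAT3 in the changes of the Reg genes was not tested.

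Genes known to respond to STAT3 or interleukin-22 did not move as 1 group. Over all genes 21.2% were called higher and 23.9% lower with the inhibitor, and 14.8% and 9.37% with the ligand. The inhibitor counts below are near those shares. With the inhibitor 3 of the 12 genes tested, of 22 listed, rose and 4 fell, with a median of -0.09 beside -0.01 over all genes. Those that rose were Fut2, which fucosylates the epithelial surface (2.36 ± 0.28, limma adjusted p = 1.83e-05), Il18, a cytokine of the epithelium (0.50 ± 0.12, adjusted p = 0.00353), and the kinase gene Pim1 (0.27). Those that fell were the transcription factor gene Cebpb (-0.78 ± 0.06), Pim3 (-0.66), Socs3 (-0.63) and Bcl3 (-0.57). With the ligand limma called 0 of 12 higher (0 at an unadjusted p under 0.05) and 2 lower, Il18 (-0.98 ± 0.12, adjusted p = 6.07e-05) and Cebpb (-0.32 ± 0.06). Il18 shared the directions of Reg3g, with means of 572 ± 117 on ligand, 1601 ± 15.7 on inhibitor and 1131 ± 127 on untreated arrays. Lcn2, Saa2, S100a8, S100a9, Nos2, Muc1 and Lrg1 lay under the filter level of 25.9 to 32.0 on all arrays.

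**Figure D4:**
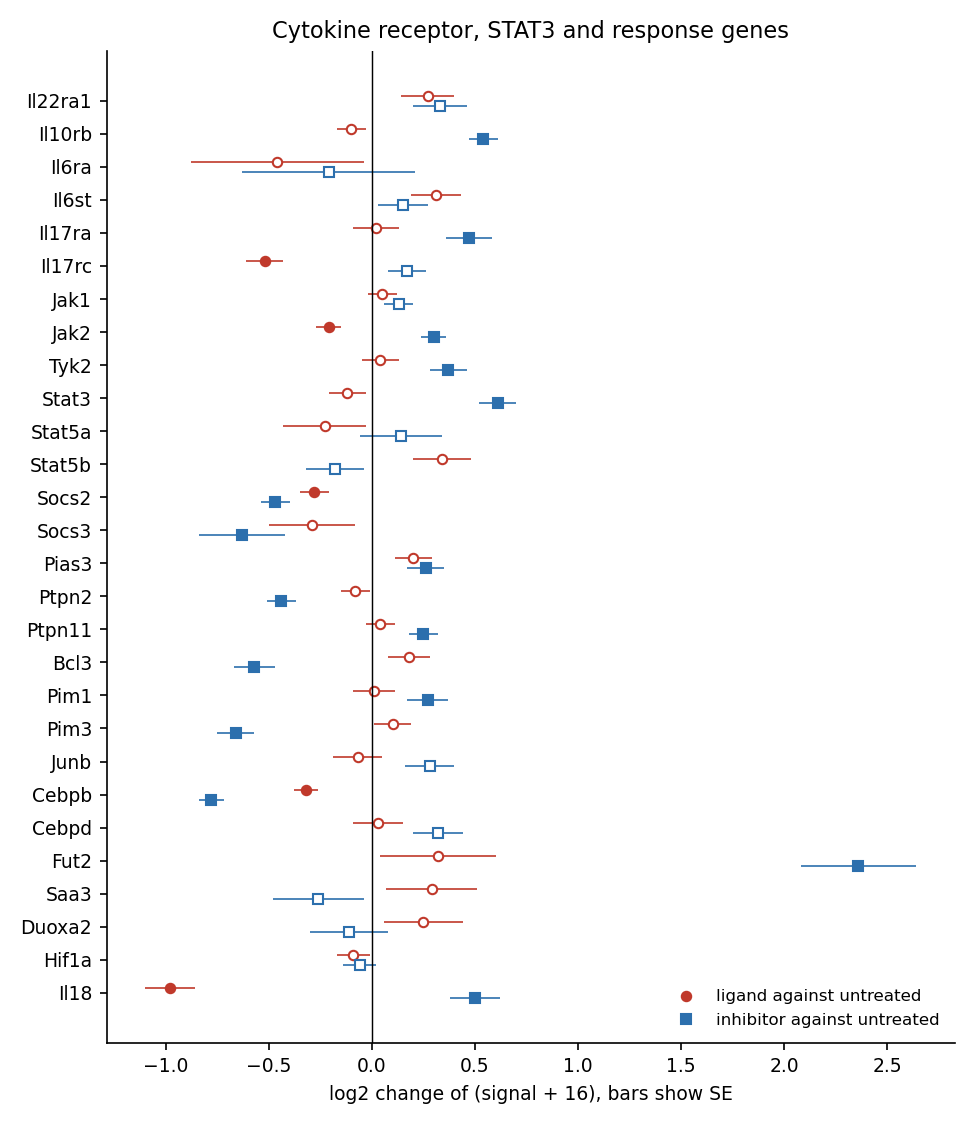
Log2 change ± SE with ligand (circles) and inhibitor (squares) against untreated, filled where the limma adjusted p was under 0.05. The genes are the tested ones of the cytokine receptor and STAT3 list and of the response list under it. Stat3 and Il10rb lie at 0.61 and 0.54 with the inhibitor and Fut2 at 2.36, and every gene called with the ligand, Il17rc, Jak2, Socs2, Cebpb and Il18, lies below 0.

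Of 22 genes of bacterial sensing and NF-kB 15 were tested, of which 4 rose and 2 fell with the inhibitor, and 3 rose and 1 fell with the ligand. The medians were -0.04 with the inhibitor and 0.11 with the ligand, beside -0.01 and 0.05 over all genes. The counts were near the shares of all genes called, 21.2% higher and 23.9% lower with the inhibitor, and 14.8% and 9.37% with the ligand. Myd88, the adaptor upstream of Reg3g in mouse, fell with the inhibitor (-0.35 ± 0.09, limma adjusted p = 0.00573) and was at 0.11 ± 0.09 with the ligand (adjusted p = 0.423). Ticam1, the adaptor of the other Toll-like receptor branch, rose by 0.63 ± 0.09 with the inhibitor (adjusted p = 7.34e-05) and fell with the ligand (-0.55 ± 0.09, adjusted p = 0.000602). Tnfaip3, an inhibitor of NF-kB (0.51), Nfkbiz, a nuclear cofactor of NF-kB (0.31), and the receptor gene Tlr2 (0.53) also rose with the inhibitor, and the peptidoglycan sensor Nod1 fell (-0.85). With the ligand Tlr2 (1.11), Irak3 (0.83) and Irak1 (0.21) rose.

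A short list held a proposed Reg receptor and secreted proteases. Extl3, a glycosyltransferase described as a Reg receptor, had means of 462 ± 33.4 on ligand, 312 ± 16.8 on inhibitor and 321 ± 7.23 on untreated arrays. It rose with the ligand (0.50 ± 0.08, limma adjusted p = 0.000679), as did Mmp7, a Paneth cell protease (1.15 ± 0.13, adjusted p = 2.76e-05), while the trypsinogen gene Prss2 was at 0.16 ± 0.24 (adjusted p = 0.684). With the inhibitor limma called 0 of these 3 (0 at an unadjusted p under 0.05). Over all genes 14.8% were called higher and 9.37% lower with the ligand, and 21.2% and 23.9% with the inhibitor.

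Reg4 was set beside regulators of the secretory lineage. All genes gave 21.2% called higher and 23.9% lower with the inhibitor, and 14.8% and 9.37% with the ligand. With the inhibitor 8 of 13 fell and 1 rose, with a median of -0.37, and with the ligand 6 rose and 2 fell, with a median of 0.27, beside -0.01 and 0.05 over all genes. Atoh1, which commits cells to the secretory lineage, had means of 486 ± 59.4 on ligand, 119 ± 11.9 on inhibitor and 322 ± 37.2 on untreated arrays (log2 changes of 0.57 ± 0.12 with the ligand and -1.32 ± 0.12 with the inhibitor). Sox9, of the crypt base, rose by 0.98 ± 0.09 with the ligand (limma adjusted p = 1.00e-05) and fell with the inhibitor (-0.82 ± 0.09, adjusted p = 1.28e-05). The Notch ligand gene Dll1 moved the same ways (0.24 and -0.74), and Kit, a receptor on deep crypt secretory cells in mouse colon, fell with the inhibitor (-1.51 ± 0.13) and was at 0.32 ± 0.13 with the ligand (adjusted p = 0.102). Klf4, of differentiated cells, went the other way, at -0.44 with the ligand and 0.49 with the inhibitor, and Gata4 also fell with the ligand (-0.30).

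Markers of the cells that make Reg proteins moved as well. Each sum here and below is of linear signals, so the brightest markers weigh most. Marker counts stand beside 21.2% of all genes called higher and 23.9% lower with the inhibitor, and 14.8% and 9.37% with the ligand. The summed signal of 9 enterocyte markers was 54200 to 62064 on ligand, 78934 to 96034 on inhibitor and 70102 to 78087 on untreated arrays, the order that Reg3g had. Reg1 was likewise lowest with the ligand, but its inhibitor and untreated arrays overlapped. With the ligand 1 of the 9 rose, the lactase gene Lct (0.92), and 4 fell, namely the sugar transporter gene Slc5a1 (-0.74), the apolipoprotein gene Apoa1 (-0.52), Fabp2 (-0.48) and the peptidase gene Anpep (-0.43). With the inhibitor 5 rose, Anpep (1.90), Apoa1 (0.66), the villin gene Vil1 (0.51), Lct (0.35) and Apoa4 (0.32), and limma called 0 lower (0 at an unadjusted p under 0.05).

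The sum of 8 Paneth cell markers was 26633 to 33963 on ligand, 16667 to 18239 on inhibitor and 18634 to 24526 on untreated arrays, highest with the ligand like Reg4. With the ligand Mmp7 (1.15), Ang4 (0.88) and Clps (0.72) rose and Mptx1 (-0.53) fell, and with the inhibitor Mptx1 (-2.82), Clps (-1.81) and Nupr1 (-0.99) fell. The sum of 10 goblet cell markers was 25075 to 30035, 17232 to 20761 and 26157 to 30844 for ligand, inhibitor and untreated arrays. With the inhibitor 7 of them fell, among them Ccl6 (-4.34), Klk1 (-3.86), Ccl9 (-3.81) and Fcgbp (-1.21), and with the ligand Ccl6 (0.85), Spdef (0.69) and Ccl9 (0.53) rose and Zg16 (-1.77) and Clca1 (-0.77) fell.

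The sum of 10 enteroendocrine markers was 16506 to 17850 on ligand, 13210 to 13952 on inhibitor and 11818 to 13796 on untreated arrays, so ligand arrays were highest as for Reg4, while the inhibitor arrays were not all below the untreated ones. With the ligand 7 rose, among them the hormone genes Gip (0.91), Sst (0.41), Cck (0.31) and Gcg (0.28). With the inhibitor Gcg (0.71), Sst (0.50), Cck (0.38) and Gip (0.25) rose, and Pyy (-0.80), Tph1 (-0.61) and Chgb (-0.23) fell. The sum of 6 stem cell markers was 26981 to 29836 on ligand, 6320 to 6811 on inhibitor and 22043 to 24488 on untreated arrays, and that of 6 tuft cell markers was 612 to 659, 157 to 188 and 286 to 317. Both were highest with the ligand and lowest with the inhibitor, the order of Reg4. Olfm4, the brightest stem cell marker on ligand and untreated arrays, was not called with the ligand (0.18 ± 0.12, limma adjusted p = 0.295). All 6 stem cell markers fell with the inhibitor, Olfm4 (-3.96), Ascl2 (-1.74), Aqp4 (-1.38) and Axin2 (-1.32) among them, and Ascl2 (1.13), Axin2 (1.01) and Lgr5 (0.74) rose with the ligand. Of the tuft cell markers Dclk1 (1.11), Avil (1.06) and Trpm5 (1.04) rose with the ligand, Dclk1 (-1.17) and Avil (-0.90) fell with the inhibitor, and Pou2f3 was not called (0.58 with the ligand, adjusted p = 0.131). The part of these cell types in the changes of the Reg genes was not tested.

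Markers of cells outside the intestinal epithelium were set beside them in the same way. Of 12 leukocyte markers on the array 8 lay under the filter level on all arrays, among them Ptprc and Cd3e, and the 12 summed to 168 to 264 on ligand, 304 to 350 on inhibitor and 213 to 230 on untreated arrays. Inhibitor arrays were thus highest in a sum where Csf1r and Il1b were the brightest by group mean, so it does not describe the 12 as a set. Of the 3 tested, Csf1r, a receptor of macrophages, had means of 57.5 ± 19.3 on ligand, 140 ± 19.4 on inhibitor and 66.2 ± 8.40 on untreated arrays and rose with the inhibitor (0.92 ± 0.19, limma adjusted p = 0.00141). The cytokine gene Il1b also rose with the inhibitor (0.43 ± 0.16, adjusted p = 0.0411), and Cd8a was at 0.02 ± 0.41 (adjusted p = 0.977). With the ligand limma called 0 of these 3 (0 at an unadjusted p under 0.05).

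Of 10 pancreatic acinar markers, taken because that tissue also makes Reg proteins, 5 lay under the filter level on all arrays, Cpa1, Cel, Cela2a, Ctrl and Rbpjl. The sum was 1425 to 1730 on ligand, 789 to 869 on inhibitor and 949 to 1081 on untreated arrays, highest with the ligand and lowest with the inhibitor like Reg4. Of the 4 tested, the chymotrypsinogen gene Ctrb1 had means of 735 ± 85.3 on ligand, 237 ± 35.3 on inhibitor and 275 ± 8.96 on untreated arrays and rose with the ligand (1.36 ± 0.11, limma adjusted p = 3.14e-06). The lipase-related gene Pnliprp1 (-0.92 ± 0.18, adjusted p = 0.000785) and the elastase gene Cela1 (-0.32 ± 0.10, adjusted p = 0.0214) fell with the inhibitor, and Cela3b was not called (0.59 with the ligand and 0.56 with the inhibitor). Between the treatments 3 of these 4 were called, all higher with the ligand, beside 32.6% of all genes called higher and 23.0% lower.

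Of 10 fibroblast markers 4 lay under the filter level, Col1a1, Col3a1, Dcn and Lum, with sums of 462 to 491, 308 to 363 and 401 to 423 for ligand, inhibitor and untreated arrays. Vim fell with the inhibitor (-1.11 ± 0.14, limma adjusted p = 3.01e-05), and Acta2 (0.22), Pdgfra (0.42) and Col1a2 (0.03) were not called. Of 5 endothelial markers 4 lay under it, with sums of 68.9 to 94.8, 74.3 to 113 and 83.7 to 97.0 for the same groups, and Kdr was not called (0.40 ± 0.26 with the inhibitor, adjusted p = 0.241). The part of these markers in the changes of the Reg genes was not tested.

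**Figure D5:**
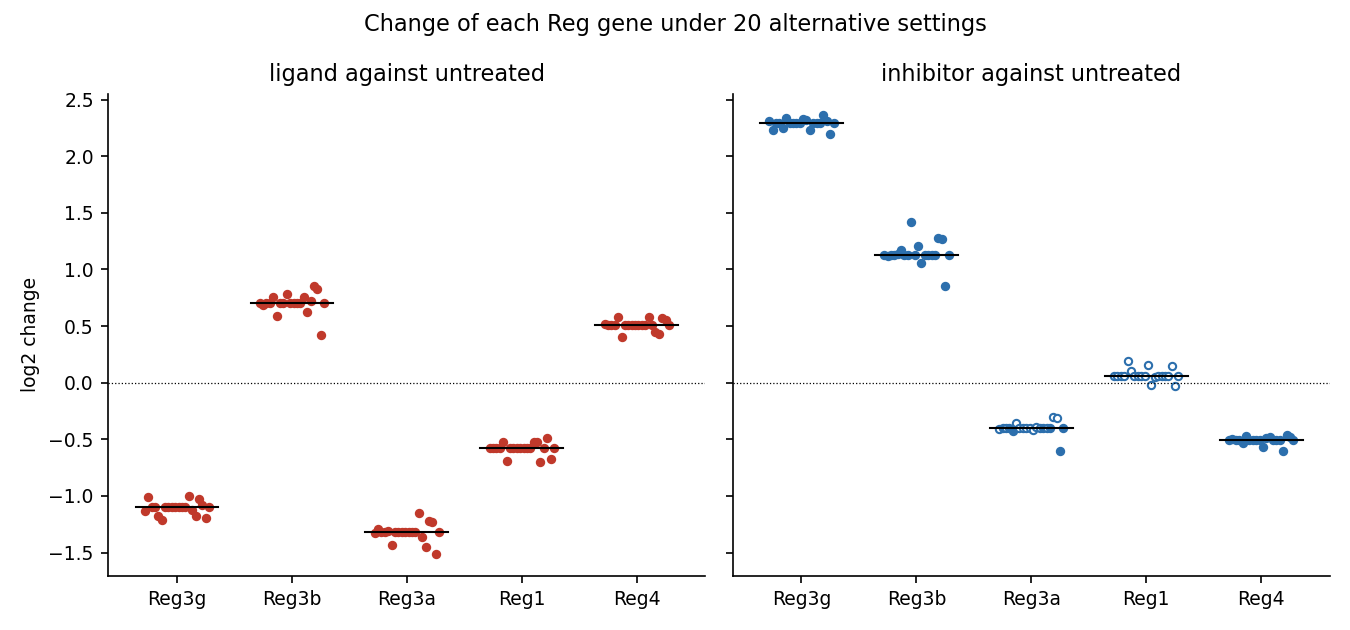
Log2 change of each member against untreated, with the ligand on the left and the inhibitor on the right, as 1 point for each of 20 alternatives (other settings and each array left out), filled where the limma adjusted p was under 0.05, with a black line at the value given in the text. Filled and open points mix for Reg3a with the inhibitor, all points of Reg1 with the inhibitor are open, and all others are filled.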

How the data were processed

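RNA of the 9 organoid arrays was amplified and biotin-labelled for a 3 prime assay, per the labels' protocols. The deposited values are intensities, 1 linear signal per probe set and array, made with MAS5 per the submitters' processing notes (version not given). MAS5 scales each array as a whole, so differences in total RNA are not seen, and dim signals are noisy: 28.9% of values were 16 or less. Gene symbols came from the platform's annotation, and probe sets with several or no gene symbols were left out.

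From the deposited intensities log2(signal + 16) was computed here, which understates changes of dim genes. Probe sets entered if 3 or more arrays had them above the 40th percentile, and the one with the highest mean stood for a gene. Groups came from the labelled treatment. One limma 3.58.1 fit in R 4.3.3, with 3 group means, 6 residual degrees of freedom, a variance trend on intensity and 2-sided tests, was adjusted by Benjamini-Hochberg over 12941 genes, and a like fit covered 23888 probe sets. The script was tested on simulated data. The number of arrays limits precision: the median SD within groups was 0.13 on the log2 scale. Replicate arrays correlated at 0.9864 to 0.9915. Over all genes tested, same-numbered arrays did not deviate together (correlations of -0.08 to 0.07), so the numbers were not taken as pairs. Some bright genes, among them Fabp1 and Itln1, still had replicate 1 lowest in each group.

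Within-array differences were compared with an exact permutation test. Promoters came from the RefSeq table of GRCm38.p6, where all 5 members, Reg2 and Reg3d matched by symbol, and the whole table was searched for each motif. Lists of pathway genes and markers came from general knowledge. Text names all members, every gene of lists with up to 4 tested genes, otherwise up to 4 with the smallest p against untreated, those behind counts of 5 or fewer, and the 3 genes most like each member. Some genes were named outside this rule, among them Pias3 and Il22ra1, and Il22ra1 was added after its values were seen. The members and lists were chosen with earlier results of these data known. Alternatives covered offset, filter, scaling, variance trend, replicate block, choice of probe set, 2-group fits and each array left out.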

Additional observations from a re-analysis of the deposited data

How the results depend on the processing

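Of 395 alternative fits of the 20 changes of the 5 genes, 373 stayed on the same side of the threshold, and no called change turned its sign. The uncalled values near 0, Reg1 with the inhibitor (-0.03 to 0.19) and the Reg4 sum of both changes (-0.17 to 0.11), crossed 0. Reg3a with the inhibitor lost its call with an offset of 1 (-0.41, adjusted p = 0.0537), no filter (-0.40, 0.0888), arrays centred on their medians (-0.36, 0.0846), no intensity trend (-0.40, 0.11), the mean of probe sets (-0.40, 0.0565) and all probe sets tested together (-0.40, 0.065). Left-out arrays gave -0.60 to -0.30, and the call was lost without any 1 inhibitor array, ligand replicate 2 or untreated replicate 1 or 2. Reg3b for ligand against inhibitor gained a call with a filter at the 60th percentile (-0.43, 0.0492), median centring (-0.59, 0.0124), the mean of its probe sets (-0.63, 0.00906) and a 2-group fit (-0.43, 0.0047). Left-out arrays gave -0.51 to -0.36, with a call without any 1 untreated array. The Reg1 sum of both changes ran between -0.71 and -0.34 with arrays left out. With the replicate number as a block, Reg3a with the inhibitor was at -0.40 (0.0649) and Reg3b for ligand against inhibitor at -0.43 (0.0324), and no other call of the 5 genes changed. Testing all probe sets together called 9041 for inhibitor against untreated (5837 genes otherwise) and 11806 for ligand against inhibitor (7186 genes otherwise), with more features tested. For the sum of both changes 3083 genes were called, and 2021 to 3402 with arrays left out, fewest without untreated replicate 2. Adjusted p-values here are limma's with Benjamini-Hochberg adjustment, and the causes of these shifts were not tested. Signals near the filter level (Reg2 and Reg3d lie closest) are the least precise.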

Other observations

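Other lectins and lectin-like proteins of the gut did not move as 1 group either. Their counts were near the shares of all genes called, 14.8% higher and 9.37% lower with the ligand, and 21.2% and 23.9% with the inhibitor. Of 12 tested, 2 rose and 2 fell with the ligand and 3 rose and 2 fell with the inhibitor by limma at adjusted p under 0.05, with medians of -0.01 and -0.08 beside 0.05 and -0.01 over all genes. Lgals3, a galectin of villus cells, had means of 3803 ± 680 on ligand, 4351 ± 155 on inhibitor and 1930 ± 314 on untreated arrays (SD, n = 3 each) and rose with both treatments, as Reg3b did (log2 changes of 0.97 ± 0.13 with the ligand and 1.18 ± 0.13 with the inhibitor). Zg16, a goblet cell lectin that binds Gram-positive bacteria, had means of 826 ± 239, 1940 ± 337 and 2810 ± 466 on ligand, inhibitor and untreated arrays. It fell with both (-1.77 ± 0.18 with the ligand and -0.53 ± 0.18 with the inhibitor). Reg3a was also called lower with both, though its call with the inhibitor lay at the threshold. Mptx1, a pentraxin of Paneth cells, also fell with both (-0.53 ± 0.17 with the ligand and -2.82 ± 0.17 with the inhibitor). Fcna, a ficolin, rose with the ligand (0.52), and Mbl2, a mannose-binding lectin (0.62), and Lman2, a cargo lectin of the secretory route (0.31), rose with the inhibitor.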
